A study of Arabidopsis thaliana with 26 samples.

Results

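The regions described here are 1211 HindIII restriction fragments of the Arabidopsis thaliana genome (TAIR10) that carry transposon sequence, no annotated gene and little or none of the heterochromatin mark H3K9me2. A fragment belonged to the set when it held at least 1 annotated transposable element and 0 genes, had a density of H3K9me2 below 20 and of H3K27me3 below 50, had at most 90 reads in a published genomic DNA library, and lay at least 2.5 Mb from the centromere. The short arms of chromosomes 2 and 4 were left out. The set made up 2.45% of the 49516 arm fragments within the same limits and 1.81% of all 66846 fragments. The members were chosen by annotation, H3K9me2, H3K27me3 and genomic DNA reads, so those values are given as a description only. H3K9me2 density was 0 in 62.6% of members, against 77.9% of the other arm fragments, and above 0 in 453 members, so that "without H3K9me2" below means a density under 20. Contact reads were not used in the choice.

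Transposons are mobile DNA sequences that plants usually keep silent, most strongly in the pericentromeres. A silenced transposon typically carries DNA methylation together with H3K9me2 and H3K27me1, and small RNAs guide part of that methylation. Short or old copies on the chromosome arms can lack H3K9me2, and differ from classical heterochromatin in this mark. The age of the copies was not measured here. In 4C, crosslinked chromatin is cut with HindIII and ligated, and the partners joined to one chosen fragment, the viewpoint, are amplified and sequenced, so that the reads on a fragment count its contacts with that viewpoint.

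The data comprised 26 libraries from aerial tissue of 14-day-old Col-0 seedlings. There were 13 viewpoints named after nearby genes or the knob hk4s, each with replicates A and B. No mutant or treatment was included, so every comparison was made between fragments within a library. The first batch held 8 viewpoints (MEA F6, MEA F8, PHE, FIS, CKI1, AG, FWA and FLC) and the later batch 5 (AT1G51860, AT3G44380, SWN, hk4s and YAO). The paper calls A and B biological replicates, but nothing in the labels says whether they came from separate plantings. Replicates were averaged within each viewpoint, so p-values measure only the spread between these viewpoints.

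Reads at HindIII ends totalled 501056 to 6549825 per library, and members averaged 1.505 to 23.4 reads. Values are given as RPM, the reads on a fragment scaled to the HindIII-end reads of its library. For each library the viewpoint's own chromosome arm was left out, and only fragments with a site of the second enzyme within 1000 bp of an end were used. Of the members, 986 met this for NlaIII and 898 for DpnII, while 225 had no NlaIII site and 311 no DpnII site. Like arm fragments were all other arm fragments within the same limits, weighted so that they matched the members in chromosome arm, length class and distance to the centromere.

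Sequence composition set the members apart before any contact was counted. Their median GC content was 29.7%, against 37.2% in the other arm fragments and 40.2% in the 539 gene-free transposon fragments that carried H3K9me2. The 2973 gene-free fragments without transposon were close to the members, at 31.1%. The following stretches start at the first HindIII end of the 3 members with the lowest and the 3 with the highest mean rank of contact reads, and are shown so that the recognition sites that decide whether a fragment can be seen in 4C can be compared. Coordinates are TAIR10, plus strand, at most 200 bases, with the sites of HindIII (AAGCTT), NlaIII (CATG) and DpnII (GATC) in capitals.
Low member 1, chr1:8487183-8487382: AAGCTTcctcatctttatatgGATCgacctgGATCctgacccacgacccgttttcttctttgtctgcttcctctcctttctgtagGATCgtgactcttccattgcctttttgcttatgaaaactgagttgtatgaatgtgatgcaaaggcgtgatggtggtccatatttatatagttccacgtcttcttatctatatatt
Low member 2, chr1:10522034-10522233: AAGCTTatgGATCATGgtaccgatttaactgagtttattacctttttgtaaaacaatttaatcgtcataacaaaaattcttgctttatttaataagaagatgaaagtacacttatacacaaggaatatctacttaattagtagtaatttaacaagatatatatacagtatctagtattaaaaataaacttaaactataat
Low member 3, chr4:8324065-8324264: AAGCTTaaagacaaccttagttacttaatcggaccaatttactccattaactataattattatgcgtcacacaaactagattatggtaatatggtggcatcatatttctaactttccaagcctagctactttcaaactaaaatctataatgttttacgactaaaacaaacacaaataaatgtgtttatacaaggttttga
High member 1, chr3:1959809-1959958: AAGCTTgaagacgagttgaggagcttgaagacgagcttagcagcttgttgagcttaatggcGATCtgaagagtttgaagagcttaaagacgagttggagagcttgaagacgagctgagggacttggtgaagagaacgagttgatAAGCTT
High member 2, chr1:23240562-23240761: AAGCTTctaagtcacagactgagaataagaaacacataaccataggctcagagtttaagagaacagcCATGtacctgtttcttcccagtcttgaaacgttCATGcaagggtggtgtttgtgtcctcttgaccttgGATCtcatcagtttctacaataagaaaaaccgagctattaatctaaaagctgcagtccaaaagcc
High member 3, chr5:21158005-21158204: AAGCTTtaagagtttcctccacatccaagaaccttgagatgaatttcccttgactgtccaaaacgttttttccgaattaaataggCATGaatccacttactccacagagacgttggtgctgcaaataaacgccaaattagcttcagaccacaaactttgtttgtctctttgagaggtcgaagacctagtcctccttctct
GC content of these stretches was 46%, 41% and 41.5% in the 3 high members and 41%, 23% and 29.5% in the 3 low members. The highest-ranked member is shown whole and ends in a second HindIII site. Over whole fragments, 81.4% of members could be used with NlaIII, against 84.3% of the other arm fragments, and 74.2% of members with DpnII, against 84.9% of the others. The longest uninterrupted run of A or T had a median of 19 bp in members and 13 bp in the other arm fragments. Within classes of arm, length and distance, members had a log2 ratio of mean run length of 0.40 to the other arm fragments. It was 0.11 to gene-free fragments without transposon. CpG dinucleotides, the main target of DNA methylation, were present at 0.744 of the number expected from base composition in the median member, against 0.538 in transposon fragments with H3K9me2 and 0.666 in the other arm fragments. Gene-free fragments without transposon again came close to the members, at 0.720.

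The members carried little of most marks. Median density, the percentage of a fragment's bases covered by at least 1 read of a published track, was 1.73 for H3K36me3 in members and 32.8 in the other arm fragments. On short fragments the deposited value can slightly exceed full coverage, and the cause of this was not tested. H3K36me3 and H3K36me2 lie along transcribed gene bodies, and H3K36me2 had a median of 2.75 in members, against 23.9 in the others. H3K4me2 and H3K4me3, marks of active genes, had medians of 1.48 and 3.28 in members, against 31.7 and 13.6 in the others. The acetylation H3K9Ac had a median of 0 in members and 8.53 in the others, while H3K18Ac was the modification with the highest median in members, at 27.04, against 45.9, and 12.7% of members had none of it. RNA was detected (transcription density above 0) in 76 members, 6.28%, against 67.2% of the other arm fragments. Such low values were not special to the members. Transcription density was 0 in 98.7% of transposon fragments with H3K9me2 and 95.5% of gene-free fragments without transposon. In the same order, median H3K36me3 was 5.74 and 1.97, H3K4me2 2.72 and 3.25, and H3K9Ac 0.921 and 0. With H3K18Ac left aside, 717 members (59.2%) were below 20 for H3K4me2, H3K4me3, H3K36me2, H3K36me3, H3K9Ac, H3K27me1, H3K27me3 (limited to 50 by the choice) and transcription at once, against 11.7% of the other arm fragments. The files give 1 value of each track per fragment, with no replicates, so no test was made.

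**Figure D1:**
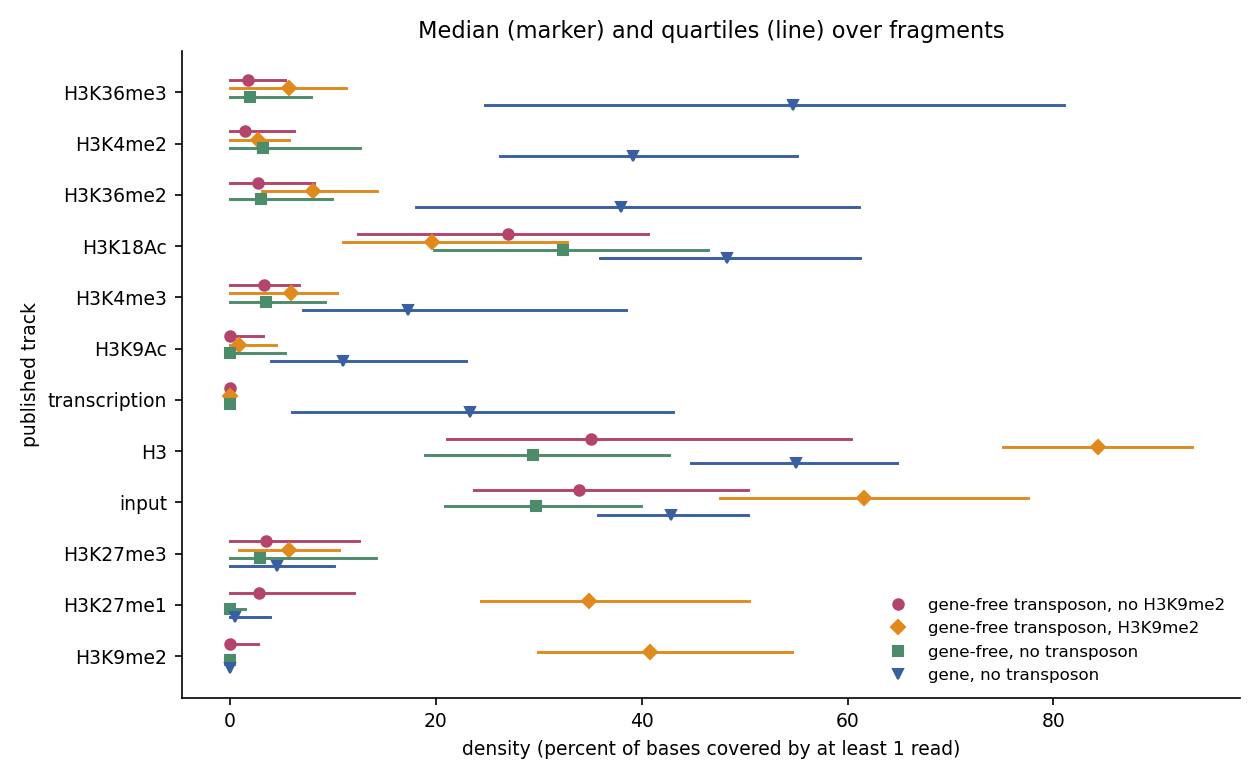
Density of 12 published tracks (horizontal axis, percent of bases covered) in gene-free transposon fragments without H3K9me2, the same with H3K9me2, gene-free fragments without transposon and gene fragments without transposon, with the median as marker and the quartiles as line. The members lie near 0 for most marks, close to the gene-free fragments without transposon, and H3 is lower in members (35.0) than in transposon fragments with H3K9me2 (84.3).

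The heterochromatin mark H3K27me1, which the choice did not use, was sparse but not absent. Its density was 20 or more in 196 members (16.2%), against 83.3% of the transposon fragments with H3K9me2 and 3.02% of the other arm fragments. Histone H3 itself had a median of 35.0 in members, against 84.3 in transposon fragments with H3K9me2 and 55.0 in gene fragments. The density of ChIP input moved with these values, with a median of 33.9 in members, 61.6 in transposon fragments with H3K9me2 and 42.9 in gene fragments, and its part in the mark values was not tested. A small RNA locus was annotated in 927 members (76.5%), against 99.1% of the transposon fragments with H3K9me2 and 33.9% of the other arm fragments. A transposable element gene, which encodes transposon proteins, was annotated in 426 members (35.2%), against 94.4% with H3K9me2. Members with such a gene had a median GC of 36.6% and a median H3K27me1 of 14.0, against 27.9% and 1.01 in members without one.

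The members lay mostly in the inner part of the arms. Fewer than 6.5 Mb separated 848 members from the centromere (70.02%, against 33.3% of the other arm fragments), and their median distance was 4.37 Mb, against 8.37 Mb. This was not special to the members, since transposon fragments with H3K9me2 had a median of 4.58 Mb. Gene-free fragments without transposon had 8.32 Mb. The long arm of chromosome 2 held the most, 252 members or 3.53% of its arm fragments, and the arm of chromosome 5 before the centromere held the fewest, 77 or 1.57%. Median length was 1154 bp in members and 1196 bp in the other arm fragments. Exactly 1 transposable element lay on 826 of the members.

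At the H3K9me2 limit itself, the members just inside were chr5:14678748-14680749, chr3:17056190-17056565 and chr4:10995148-10995353, with densities of 19.98, 19.95 and 19.903, and mean contact reads of 6.49, 2.88 and 2.73 RPM over the libraries that could show them. The fragments just outside were chr5:17406437-17406601, chr2:6261208-6262726 and chr5:15638174-15640981, with densities of 20, 20.013 and 20.014 and mean contact reads of 2.53, 2.22 and 2.51 RPM. The 3 values inside lay above the 3 outside, 2 of them by little. In the same order, GC content was 41.5%, 38.6% and 41.3% inside and 27.9%, 28.2% and 36.3% outside. H3K27me1 density was 36.8, 48.9 and 30.6 inside and 0, 6.52 and 25.8 outside. These fragments were not matched in GC, length or libraries, so their order cannot be ascribed to the H3K9me2 limit.

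Members received fewer contact reads than like arm fragments from every viewpoint. In the first batch, members averaged 2.80 (A) and 2.69 (B) RPM from MEA F6, against 4.01 and 3.83 RPM in like fragments. From MEA F8 they averaged 1.37 and 2.38 RPM, against 2.21 and 3.45 RPM. PHE, whose libraries gave the highest levels, had 6.55 and 6.77 RPM in members, against 7.14 and 7.53 RPM. Members were thus below like fragments in both replicates of each, by the least in PHE. FIS gave 2.92 and 3.36 RPM, against 4.18 and 4.44 RPM, and CKI1 gave 1.55 and 1.99 RPM, against 2.08 and 2.45 RPM. AG gave 2.26 and 2.17 RPM, against 2.88 and 3.02 RPM. FWA gave 3.96 and 4.51 RPM, against 5.75 and 6.31 RPM, and FLC gave 4.80 and 4.97 RPM, against 6.62 and 6.77 RPM. The 2 groups of values did not overlap within any of these viewpoints except MEA F8, where member replicate B exceeded the like fragments of replicate A.

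In the later batch, AT1G51860 gave 1.604 and 0.608 RPM in members, against 2.02 and 0.699 RPM in like fragments, and AT3G44380 gave 4.58 and 5.32 RPM, against 5.96 and 7.0 RPM. SWN gave 2.46 and 3.35 RPM, against 3.60 and 5.12 RPM. The viewpoint in the knob, hk4s, gave 3.57 and 2.57 RPM, against 4.32 and 3.13 RPM, and YAO gave 1.19 and 0.897 RPM, against 1.63 and 1.26 RPM. Members were again lower in each library, although replicates of AT1G51860 and hk4s differed in level by more than members and like fragments did.

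**Figure D2:**
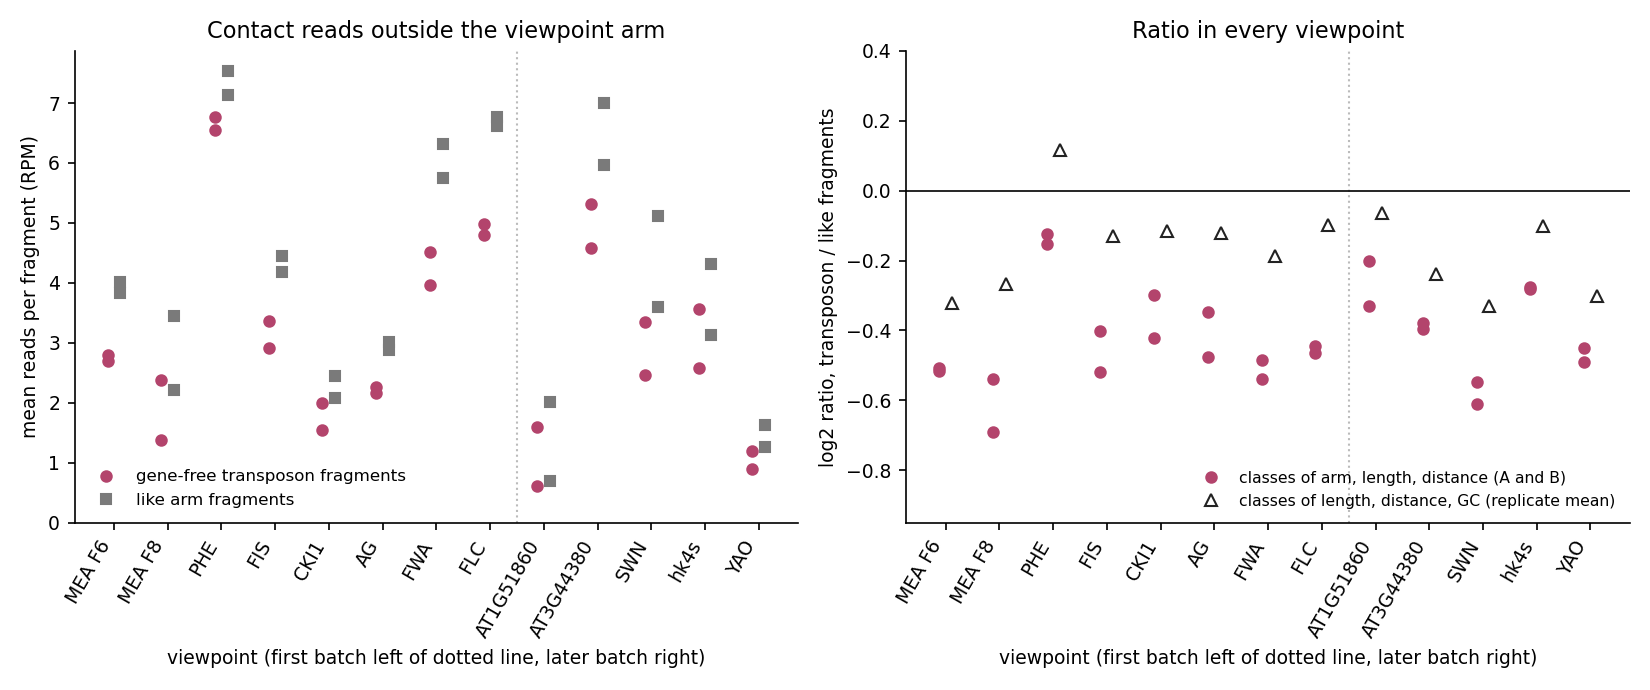
Left, mean HindIII-end reads per fragment (RPM) in members (circles) and like arm fragments (squares) for replicates A and B of each viewpoint. Right, the log2 ratio of both in each library (circles) and, as replicate mean, the ratio within classes of length, distance and GC content (triangles). All circles lie below 0, and within GC classes PHE alone lies above 0, at 0.12.

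The log2 ratio of members to like arm fragments was -0.42 ± 0.13 on average (SD over 13 viewpoints), or 25.2% fewer reads, and below 0 in all 26 libraries. It ran between -0.61 (MEA F8) and -0.14 (PHE), and replicates of a viewpoint differed by a mean SD of 0.048. The exact sign-flip permutation test over viewpoints gave p = 0.000244, two-sided, the smallest that 13 viewpoints allow, and 0.000391 after Benjamini-Hochberg adjustment over 8 such tests. All viewpoints saw the same fragments, so a property of a fragment recurs in each of them. MEA F6 and MEA F8 lie at the same locus, and the paper reports a correlation between them close to that of replicates. They are therefore not independent units. With the MEA viewpoints averaged (n = 12), the ratio was -0.41 ± 0.13 (adjusted p = 0.000781, exact sign-flip permutation). The ratio was -0.43 ± 0.14 in the first batch (n = 8) and -0.40 ± 0.13 in the later one (n = 5). Viewpoints of the later batch were also those near the centromere, so batch and viewpoint position cannot be told apart.

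Base composition moved with this result. Members below 26% GC had a log2 ratio of -1.05 ± 0.24 to like arm fragments (229 members), those of 26 to 30% had -0.71 ± 0.13 (402) and those of 30 to 34% had -0.46 ± 0.23 (237). Members of 34 to 38% GC had 0.08 ± 0.23 (136), and those above 38% had 0.21 ± 0.23 (207), with 11 of 13 viewpoints above 0. The AT-rich members were thus below like fragments, and those of 34% GC or more were not. When members were set against other arm fragments of the same GC, length and distance class, a matching chosen after seeing the data that leaves out the arm, these 5 groups had -0.29 ± 0.27, -0.27 ± 0.16, -0.31 ± 0.23, 0.04 ± 0.23 and 0.05 ± 0.23 in the same order. Over all members the ratio matched in this way was -0.17 ± 0.13, below 0 from 12 of 13 viewpoints (adjusted p = 0.00234, exact sign-flip permutation). Genomic DNA reads differed less, by a log2 ratio of -0.07 between members and like fragments, and ChIP input reads by -0.31. The ratio was -0.38 with input density in the classes in place of arm.

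**Figure D3:**
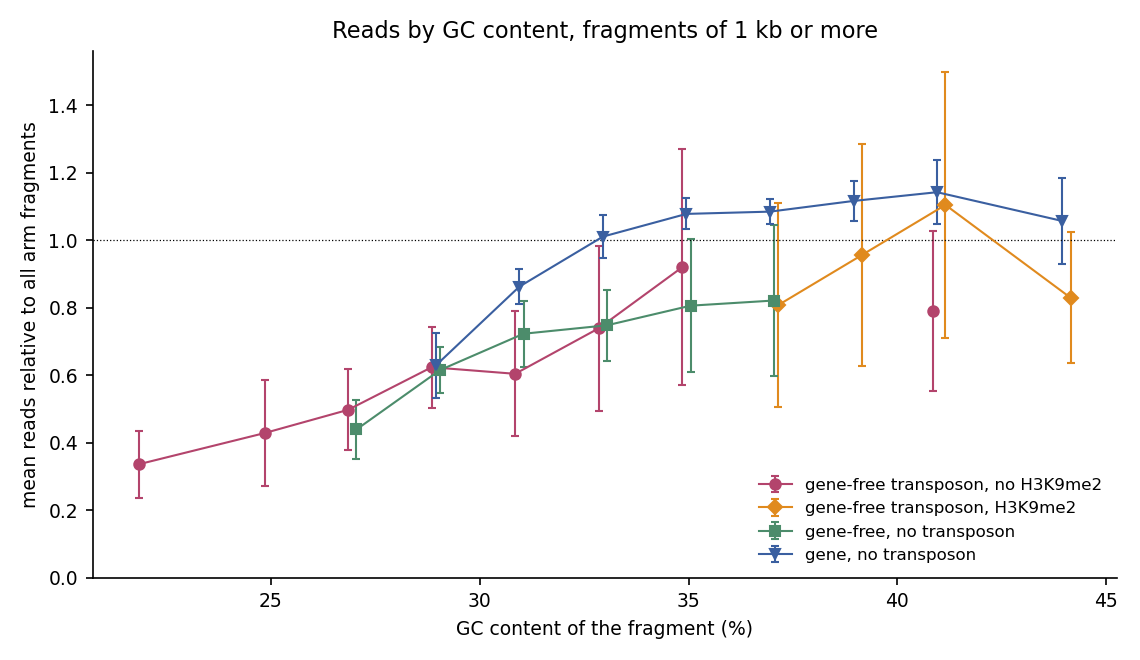
Mean contact reads relative to all arm fragments of a library (vertical axis) by GC content of the fragment (horizontal axis, percent), for fragments of 1000 bp or more with reads limited at the 99th percentile, as mean and SD over 13 viewpoints for classes with at least 20 fragments. Members have 0.337 at 20 to 24%, 0.624 at 28 to 30%, 0.604 at 30 to 32%, 0.920 at 34 to 36% and 0.790 at 40 to 42%, and gene-free fragments without transposon follow a similar course, with 0.440 at 26 to 28% and 0.806 at 34 to 36%.

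The ratio also varied with length. Members under 500 bp had a ratio of -0.04 ± 0.24 to like fragments (383 members), and those of 500 to 1000 bp had -0.27 ± 0.17 (180). The ratio was -0.51 ± 0.17 for 1000 to 2000 bp (272), -0.49 ± 0.17 for 2000 to 4000 bp (258) and -0.53 ± 0.23 for longer members (118). Matched on GC, the 5 length groups had 0.08 ± 0.26, 0.02 ± 0.16, -0.20 ± 0.15, -0.21 ± 0.18 and -0.34 ± 0.29, so that the 2 shorter groups were no longer below 0. Members with more than 1 transposable element had -0.56 ± 0.18 (385), and those with 1 had -0.31 ± 0.14. Matched on GC, these were -0.26 ± 0.18 and -0.099 ± 0.12. The fraction of members with any read differed less than the mean number, with a log2 ratio of -0.12 ± 0.06 to like fragments (adjusted p = 0.000781).

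Transposon fragments that carried H3K9me2 received more reads than the members. Members had 0.639 to 6.43 RPM over libraries (median 2.498), against 0.839 to 8.78 RPM (median 3.46) in fragments with the mark, within shared classes of arm, length and distance. The log2 ratio was -0.50 ± 0.14, below 0 from 13 of 13 viewpoints (p = 0.000244, adjusted 0.000391, exact sign-flip permutation). Within GC classes, which kept 269 to 417 members, the ratio was -0.0043 ± 0.26, between -0.58 (CKI1) and 0.52 (MEA F6), with an adjusted p of 0.952. Viewpoints then lay on both sides of 0, and no difference was detectable.

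Against gene fragments without transposon, members had 0.608 to 6.77 RPM (median 2.75) and gene fragments 0.672 to 7.66 RPM (median 4.28). The ratio was -0.51 ± 0.19, below 0 from 13 of 13 viewpoints (adjusted p = 0.000391). Within GC classes it was -0.12 ± 0.19, with an adjusted p of 0.0527 and values between -0.36 (CKI1) and 0.33 (PHE).

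Against gene-free fragments without transposon, which share the low GC and the few marks, the members came closer. They had 0.593 to 6.01 RPM (median 2.73), against 0.650 to 7.47 RPM (median 3.05). The ratio was -0.13 ± 0.11, below 0 from 12 of 13 viewpoints (p = 0.00195, adjusted 0.00260, exact sign-flip permutation), with hk4s at 0.12. The first batch gave -0.17 ± 0.083 and the later batch -0.053 ± 0.11. The ratio within GC classes was -0.075 ± 0.14, between -0.29 (YAO) and 0.18 (PHE), with an adjusted p of 0.0798.

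**Figure D4:**
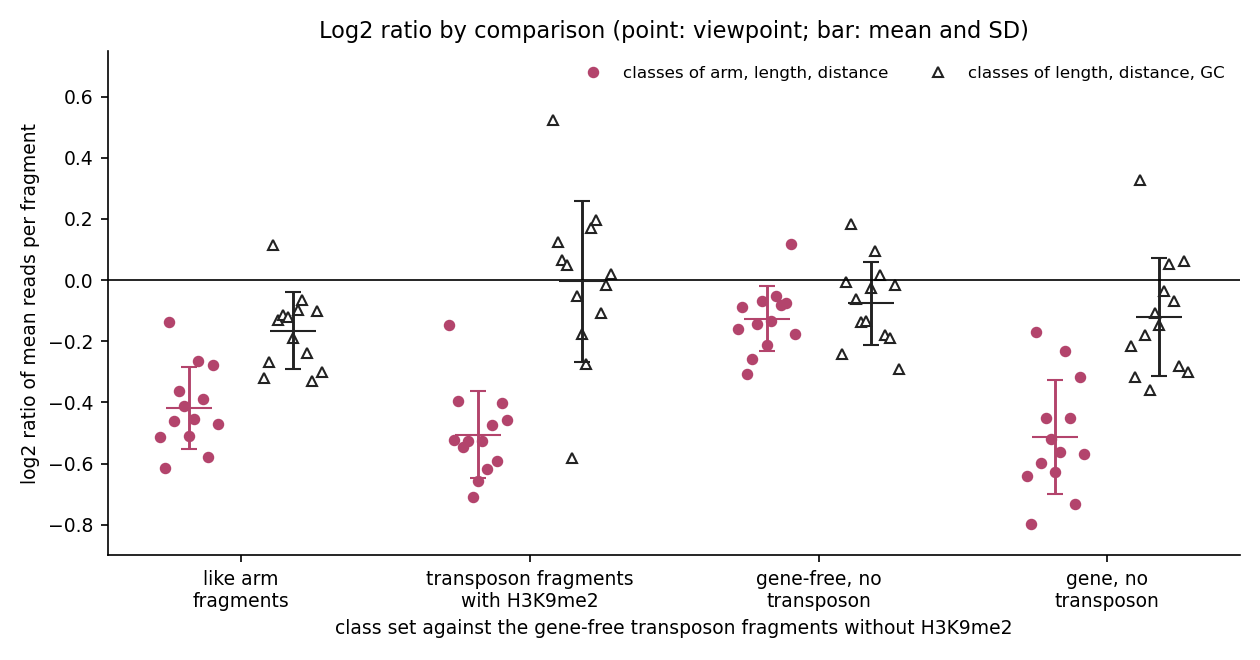
Log2 ratio of mean reads per fragment between the members and 4 other classes (vertical axis), with 1 point per viewpoint and bars for mean and SD, in classes of arm, length and distance (circles) and of length, distance and GC (triangles). Circles average -0.42, -0.50, -0.13 and -0.51, and triangles -0.17, -0.0043, -0.075 and -0.12.

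Among the members, those with H3K27me1 stood out. Members with a density of 20 or more had 0.646 to 8.27 RPM (median 3.35), against 0.506 to 5.12 RPM (median 2.15) in members below 20 of the same arm, length and distance. The log2 ratio was 0.58 ± 0.13, above 0 from 13 of 13 viewpoints and in all libraries (p = 0.000244, adjusted 0.000391, exact sign-flip permutation). GC content moved with the mark, with a median of 37.3% in members of 20 or more and 28.8% in the others, and so did input density, with 64.5 and 30.9. The ratio within GC classes was 0.15 ± 0.22 (adjusted p = 0.0354, exact sign-flip permutation), and 3 viewpoints (FIS, YAO and FWA) lay below 0. Members with a transposable element gene, a split made after the values were seen and given with no test, had a ratio of 0.53 ± 0.11 to members without one. Within GC classes that ratio was -0.19 ± 0.21, above 0 from 2 of 13 viewpoints.

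Transcribed members were not set apart beyond the spread between viewpoints. They had 0.403 to 6.73 RPM (median 3.98), against 0.555 to 8.60 RPM (median 3.29) in untranscribed ones. The ratio was 0.055 ± 0.36, above 0 from 8 of 13 viewpoints (p = 0.585, exact sign-flip permutation), and ran between -0.54 (PHE) and 0.67 (hk4s). Only 39 to 56 transcribed members entered a library, and replicates differed by a mean SD of 0.25. On the share of fragments with a read the ratio was 0.094 (adjusted p = 0.0203, exact sign-flip permutation), and within GC classes it turned to -0.14 (adjusted p = 0.350).

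The deficit was larger nearer to the centromere. Members under 6.5 Mb had a mean log2 ratio of -0.46 to like fragments, and members at 6.5 Mb or more had -0.33. The difference of -0.13 ± 0.11 was below 0 from 13 of 13 viewpoints (p = 0.000244, adjusted 0.000391, exact sign-flip permutation), with CKI1 at -0.0045, and it was -0.084 in the first and -0.21 in the later batch. Of the 26 single libraries, 22 were below 0, and replicates differed by a mean SD of 0.12, near the size of the difference. It did not change evenly with distance, since the 39 members at 12.5 to 14.5 Mb had -0.93 ± 0.43, beside -0.24 ± 0.17 for 73 members at 10.5 to 12.5 Mb. Matched on GC, these were -0.46 ± 0.26 and -0.058 ± 0.18.

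By arm, the ratio lay between -0.59 ± 0.20 on the long arm of chromosome 2 and -0.21 ± 0.23 on the arm of chromosome 5 before the centromere. Matched on GC, these arms had -0.51 ± 0.22 and -0.062 ± 0.28, while the long arm of chromosome 4 had -0.46 ± 0.17 without and 0.02 ± 0.64 with this matching. The cis arm is the second arm of the chromosome that holds the viewpoint, and trans arms are those of other chromosomes. From the 9 viewpoints with members in cis, the ratio was -0.53 in cis and -0.37 in trans. The difference was -0.16 ± 0.092, below 0 in 9 of 9 viewpoints (p = 0.00391, adjusted 0.00446, exact sign-flip permutation, the smallest p that 9 viewpoints allow). SWN, hk4s and YAO lie on the same arm, as do MEA F6 and MEA F8, and PHE and AT1G51860. Viewpoints on the same arm share their cis members and are not independent units, so this p overstates the evidence. Single libraries were below 0 in 16 cases and not in the others, and replicates differed by a mean SD of 0.15. Without replicate B it was -0.12 with an adjusted p of 0.134, and on the share of fragments with a read it turned to 0.024. Within GC classes it was -0.14 with an adjusted p of 0.0670.

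Single members varied widely around these means. Values of single members come only from libraries outside the viewpoint's own arm in which the second-site limit was met, which left 1045 members. Over these, mean contact over viewpoints was 0 RPM in 9 members, 2.40 RPM in the median member, 4.03 RPM at the upper quartile and 15.9 RPM at most. Each fragment's reads were ranked among like arm fragments of the same class, as a percentile that would be 50 on average, and the mean over viewpoints was tested with limma across all arm fragments. Of 994 members that could be ranked, 184 were called low and 72 high at an adjusted p of 0.05, or 18.5% and 7.24%. Among all arm fragments ranked, 7.68% were called low and 7.43% high, so that only the low calls were more frequent than the background. A fragment needed at least 6 viewpoints and classes of at least 20 fragments to be ranked.

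**Figure D5:**
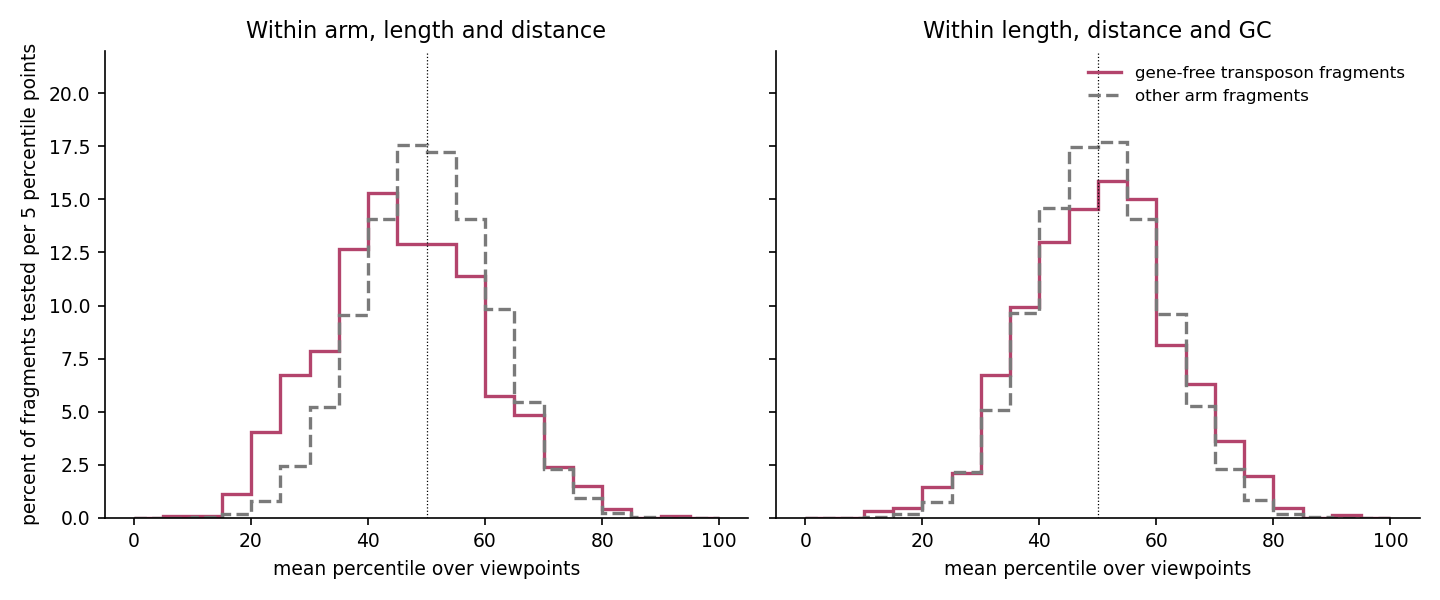
Distribution of the mean percentile over viewpoints (horizontal axis) as percent of fragments per 5 points (vertical axis), for members (solid) and other arm fragments (dashed). Within arm, length and distance (left) members have a median of 45.8, and within length, distance and GC (right) a median of 50.4.

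Low and high members differed in sequence and in length. The 184 low members had a median GC of 27.8%, a median longest A or T run of 27 bp and a transposable element gene in 12.5%. The 72 high members had a median GC of 37.8%, a run of 10.5 bp and a transposable element gene in 69.4%. Median length was 2109.5 bp in low and 688 bp in high members, so the runs were not compared at equal length. Median input density was 27.8 in low and 63.6 in high members. Among members below 30% GC, 138 of 517 were called low (26.7%), against 18.6% of all arm fragments of that GC, and 9 were called high (1.74%, background 1.61%). Among those of 30 to 34% GC, 36 of 201 were low (17.9%, background 11.6%) and 6 high (2.99%, background 4.84%). Among members of 34% GC or more, 57 of 276 were called high (20.7%), against 8.66% of all arm fragments of that GC, and 10 were called low (3.62%, background 5.6%). Ranked within GC classes, 86 of 907 members were low (9.48%, background 6.17%) and 84 were high (9.26%, background 6.37%), and 80 of these low and 53 of these high members were shared with the first ranking.

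The 5 lowest members were almost without reads. The fragment chr1:8487183-8494843, of 7661 bp, had reads in 2 of 22 libraries, up to 1.5 RPM, against a mean of 8.32 RPM in like fragments, and a mean percentile of 9.82 ± 5.55 (SE, 11 viewpoints, limma adjusted p = 1.82e-06). It holds 2 transposable elements and 19 small RNA loci, and in the newer RefSeq annotation it overlaps the protein-coding AT1G23995 and the pseudogene AT1G23990. The fragment chr1:10522034-10526165 had reads in 4 of 22 libraries, up to 1.32 RPM, and a percentile of 12, and lies 5649 bp from nMAT1, a maturase of mitochondrial introns. The fragment chr4:8324065-8326347 had reads in 5 of 22 libraries, and a percentile of 16.0, beside AHL20, an AT-hook protein gene 1713 bp away. The fragment chr3:10294399-10298850, with 23.1% GC, had reads in 3 of 26 libraries, up to 0.275 RPM, and a percentile of 16.0. It lies between MYB118 and MYB21, both genes of MYB transcription factors. All 4 had between 4 and 12.1 genomic DNA reads, so sequence from them was mapped in that library. The last of the 5, chr4:9053262-9054580, had 0 reads in 14 libraries, which allows up to 0.0913 RPM over all of them (3 counts, counting error only), but it also had only 1 genomic DNA read. Within GC classes, chr1:8487183-8494843 had a percentile of 12.2 (limma adjusted p = 6.37e-06). There chr4:8324065-8326347 had 28.9 (adjusted p = 0.0100) and chr4:9053262-9054580 had 27.2 (adjusted p = 0.0281). The fragments chr1:10522034-10526165 and chr3:10294399-10298850 could not be ranked within GC classes.

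The 5 highest members were 128 to 1614 bp long, with 35.5% to 46% GC. The fragment chr3:1959809-1959958, of 150 bp and 46% GC, had reads in 12 of 12 libraries, with 0.929 RPM at the lowest, 15.4 RPM at the median and 37.5 RPM at the highest, against a mean of 2.97 RPM in like fragments. Its mean percentile was 90.04 ± 7.79 (SE, 6 viewpoints, limma adjusted p = 0.000266). PHE gave 37.5 (A) and 23.5 (B) RPM, while AG gave 0.929 and 2.55 RPM. Its neighbour chr3:1959291-1959814 was the member with the highest H3K4me3, at 100.2, and had a percentile of 52.0 (adjusted p = 0.846). Both overlap the transcribed pseudogene AT3G06433. The fragment chr1:23240562-23242175, with part of a transposable element gene, had reads in 22 of 22 libraries, with 0.732, 6.53 and 29.8 RPM at the lowest, median and highest, and a percentile of 82.9 (adjusted p = 3.72e-05).

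The others in this group were chr5:21158005-21158920, beside the co-chaperone gene BAG1, chr3:4277916-4278292 and chr3:16259921-16260048, with percentiles of 82.7, 82.5 and 80.3. They had reads in 13 of 14, 11 of 12 and 12 of 12 libraries, with medians of 5.06, 6.96 and 4.88 RPM and highest values of 58.8, 57.1 and 28.7 RPM. The first averaged 12.5 RPM, or 7.93 RPM without MEA F6, and the second 11.2 RPM, or 6.70 RPM without PHE. Within GC classes these 5 had percentiles between 76.5 and 90.2.

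The 3 members with the most reads were not among the 5 with the highest percentile. The fragment chr5:5632201-5634866 averaged 15.9 RPM over viewpoints, but PHE alone gave 109.8 RPM, and without it the mean was 7.40 RPM. The fragment chr3:9735341-9743124, of 7784 bp, averaged 15.9 RPM and had reads in 25 of 26 libraries, with FLC highest at 88.6 RPM (9.80 RPM on average without FLC), and a percentile of 73.9 (adjusted p = 0.00116). At 27.99% GC it was an AT-rich member with a high rank. The fragment chr4:6992595-6995505 averaged 15.6 RPM and had reads in 15 of 22 libraries (adjusted p = 0.0596).

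The member with the highest transcription density, 96.2, was chr4:9486465-9487749, which holds a transposable element gene and lies 717 bp from RPP4, a disease resistance gene. It had reads in 17 of 22 libraries, with a median of 7.49 RPM and a percentile of 64.5 (adjusted p = 0.0724). The member with the highest H3K27me1 density, 102.4, was only 42 bp long (chr5:9094027-9094068), and no library could show it. The longest member, chr2:6227334-6237290 of 9957 bp, lies between PRB1 and PR1, both genes of pathogenesis-related proteins, and had a median of 5.17 RPM and a percentile of 60.6 (adjusted p = 0.209).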

How the data were processed

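Members and lists were chosen with earlier results of these data known. The authors split 4C reads by viewpoint primer, trimmed them to 30 bp, aligned them to TAIR10 with Bowtie 0.12.7, shared reads with several matches by weight and deposited expected counts per fragment end. Expected counts from a genomic DNA library and a ChIP input, likewise deposited, and the deposited signal values (densities of H3, histone modifications, transcription and input), came from published data realigned by the authors. Feature numbers and distances were computed by the authors from TAIR10.

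From these, RPM, class-weighted ratios and percentiles were computed. Length classes had edges of 500, 1000, 2000 and 4000 bp and distance classes steps of 2 Mb, and a class needed 20 fragments for a percentile. GC classes, chosen after seeing the data, ran from 26 to 40% in steps of 2%. Replicates were averaged on the log2 scale. Sequences and sites were read from the RefSeq copy of TAIR10, whose HindIII sites matched 100% of fragment starts. For 7 viewpoints the methods name NlaIII as second enzyme and a supplementary list of the study names NlaIV. NlaIII was used, since its sites matched the deposited second-site column in 100% of fragments, against 70.8% for NlaIV. With NlaIV, the ratio of members to like fragments was -0.36 with the same call. The other 6 used DpnII. Members named singly were the 5 with the lowest and the 5 with the highest percentile among those called, the 3 with the most reads, and those with the highest H3K4me3, H3K27me1, transcription and length. Tools were Python 3.11.15, NumPy 2.4.6, pandas 2.3.3, matplotlib 3.10.9, R 4.3.3 and limma 3.58.1, and the procedures were tested on simulated data. Every printed p measures the spread between viewpoints. The alternatives tried were the second-site filter, the kind of read end, caps, detection, genomic DNA reads, matching, H3K9me2 limits, enzymes, batches, viewpoints and replicates.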

Additional observations from a re-analysis of the deposited data

Results flagged for a closer look

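The ratio of members to like arm fragments differed between members nearer to and farther from the centromere, by -0.13 on the log2 scale (nearer minus farther, below 0 from 13 of 13 viewpoints and in 22 of 26 libraries). Within GC classes the difference was -0.18 (adjusted p = 0.000781, exact sign-flip permutation). It also differed between the cis arm and the trans arms, by -0.16 (cis minus trans, below 0 from 9 of 9 viewpoints, though not in every library). Within GC classes that difference was -0.14 (adjusted p = 0.0670). Both were picked out because the difference itself passed the test. In the cis comparison several viewpoints lie on the same arm and share their cis members, so its viewpoints are not independent units.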

How the results depend on the processing

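Of 193 alternatives to the 8 comparisons over viewpoints, 184 kept the direction and the side of the threshold, among them all 100 that left out 1 viewpoint. These 184 include the replicate block, which cannot change a ratio in this balanced design. Where all viewpoints agreed in sign, leaving out 1 viewpoint could not change the call either, so those outcomes were fixed in advance. The ratio of members to like fragments ran between -0.64 (no matching) and -0.12 (share of fragments with a read), and in the later batch alone it was -0.40, where 5 viewpoints cannot give a p below 0.0625. Matching on GC, chosen after seeing the data, ended the call against fragments with H3K9me2 (-0.0043), against gene-free fragments without transposon (-0.075), against gene fragments (-0.12) and between cis and trans arms (-0.14), and turned transcribed against untranscribed members to -0.14. The share of fragments with a read gave 0.094 for transcribed members, past the threshold (adjusted p = 0.0203), and 0.024 for the cis arm. The cause of these shifts was not tested.

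Without replicate A or without replicate B the ratios ran between -0.41 and -0.43 against like fragments, between -0.47 and -0.54 against fragments with H3K9me2, between -0.13 and -0.12 against gene-free fragments, between -0.50 and -0.53 against gene fragments, between 0.041 and 0.068 for transcription, between 0.51 and 0.64 for H3K27me1, between -0.15 and -0.12 for distance and between -0.20 and -0.12 for the cis arm. Low calls numbered 79 (7.95%, against 2.22% of all arm fragments) and 97 (9.76%, against 2.71%) in these settings, and high calls 27 (2.72%, against 2.75%) and 34 (3.42%, against 3.16%). Without the second-site filter 290 were low (24%, against 11.3%) and 120 high (9.92%, against 10.001%). When reads were required in at least 50% of the libraries, 44 of 713 were low (6.17%, against 3.36%) and 66 high (9.26%, against 7.99%), with a median percentile of 51.4 in place of 45.8. Within GC classes 86 were low (9.48%, against 6.17%). With log2 RPM in place of the percentile, 48 were high (4.83%, against 6.25%).

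Each replicate letter was loaded on a sequencing lane of its own in each batch, so letter and lane cannot be told apart. Differences between A and B correlated weakly between viewpoints, by 0.0046 on average in the first batch (28 pairs, -0.012 to 0.033) and by 0.079 in the later one (10 pairs, 0.037 to 0.115, all above 0). When the letter entered as a replicate block, 186 members were low (18.7%, against 7.80% of all arm fragments) and 73 high (7.34%, against 7.26%). The 8 comparisons, with -0.42 against like fragments, kept their ratios and calls by construction, since every viewpoint has both letters. They therefore cannot test for an effect of letter or lane. Depth limits single members most, since they averaged 1.505 reads in the library where they had the fewest (AT1G51860, replicate B), and reads are PCR products without molecular identifiers.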

Other observations

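In the newer RefSeq annotation, 464 members overlapped a pseudogene, 118 a protein-coding gene and 63 a long noncoding RNA, and 585 overlapped no gene of any kind. Per library, 30.2% to 86.3% of members that the library could show had at least 1 read, against 28.7% to 93.2% of the other arm fragments, with no matching. The 12 members with the highest mean RPM over viewpoints held 5.17% of the summed mean RPM of all members. Across the 13 viewpoints, which share their fragments, the ratio to like fragments and the distance of the viewpoint to the centromere had a Spearman rho of -0.18.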
